A study of Mus musculus with 3 samples.

Results

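The genes described here are the ligands and receptors of the classical axon guidance families in the medial prefrontal cortex of the mouse. They were taken by symbol: class 3 to 7 semaphorins, plexins, neuropilins, Eph receptors, ephrins, Slits, Robos, netrins, netrin-Gs, Unc5 receptors and Dcc, each with at least 100 unique molecular identifiers (UMIs, a count of distinct captured RNA molecules) over the 3 libraries. Of 32285 genes listed, 74 matched the symbols and all 74 had that many UMIs. The lowest was Epha1 with 147. They are 20 semaphorins, 9 plexins, 2 neuropilins, 14 Eph receptors, 8 ephrins, 3 Slits, 4 Robos, 4 netrins, 2 netrin-Gs, 4 Unc5 receptors, Dcc, and 3 antisense RNAs of Plxna4 that share its symbol.

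Guidance cues are secreted or membrane-bound proteins that steer growing axons by attraction or repulsion. Semaphorins signal through plexins, with neuropilins as co-receptors for most class 3 members, ephrins through Eph receptors, Slits through Robos, and netrins through Dcc and the Unc5 receptors, while netrin-Gs are anchored to the axon membrane and act at synapses. In the adult brain the same families are known for roles in synapse organisation, myelination and blood vessels.

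Single cells were dissociated with papain and sequenced on the 10x Genomics 3′ platform in 3 libraries, 1 from estrous females, 1 from diestrous females and 1 from males, with tissue of 2 mice named for each. The labels give no strain, age or treatment. The labels call the cells total neurons, but the markers showed a whole-tissue suspension: of the retained cells of each library, 12284, 14134 and 15550 in estrus, diestrus and male, glutamatergic neurons were 1274, 1604 and 1445. Cells were placed in classes by marker genes that include none of the guidance genes, and the UMIs of each class were summed per library and given as counts (CPM) per 1000000 of the class's UMIs outside mitochondrial genes. Between cell classes the 3 libraries served as replicates (n = 3), so p-values measure how differences between classes vary over these 3 libraries. The libraries also differ in sex and cycle stage.

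The libraries differed in depth, with median UMIs per retained cell of 6139 in estrus, 4671 in diestrus and 3885 in male. RNA of glutamatergic neurons was also present in other classes: their marker genes reached 4.44%, 10.4% and 14.5% of the glutamatergic level in microglia of estrus, diestrus and male. A pair of libraries shared 68 to 97 cell barcodes, and none was shared by all 3. Gates are ranges on a marker score, and 336 cells lay within 0.1 of the limits of the glutamatergic gate, which held 4323. The meningeal fibroblast gate (VLMC) was the least clean: its 154 cells carried astrocyte markers at 8.69% to 34.8% of the astrocyte level, and 80 cells lay near its limits.

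The class with the highest mean level, among the 12 classes compared, differed between the guidance genes. It was glutamatergic neurons for 15 genes, endothelial cells for 9, VLMC for 9 and oligodendrocyte precursors (OPC) for 8. The range over libraries lay apart from that of the next class for 9 of the 15 genes in glutamatergic neurons, 7 of the 9 in endothelial cells, 4 of the 8 in OPC and 2 of the 9 in VLMC. No share of all genes with ranges apart is given, so these counts describe the members only. Of the members, 6 were at least 5 times higher in their highest class than in every other class in all 3 libraries. They were Sema3c, Sema3g, Sema7a and Robo4 in endothelial cells, Ntn4 in smooth muscle cells and Efnb3 in oligodendrocytes. The share of all genes that meet this 5-fold rule, and its split by class, are not given. An index of restriction to 1 class, tau, which runs from 0 for an even level to 1 for a single class, had a median of 0.841 over the 71 members it covered and 0.714 over 18197 genes with as many UMIs.

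**Figure D1:**
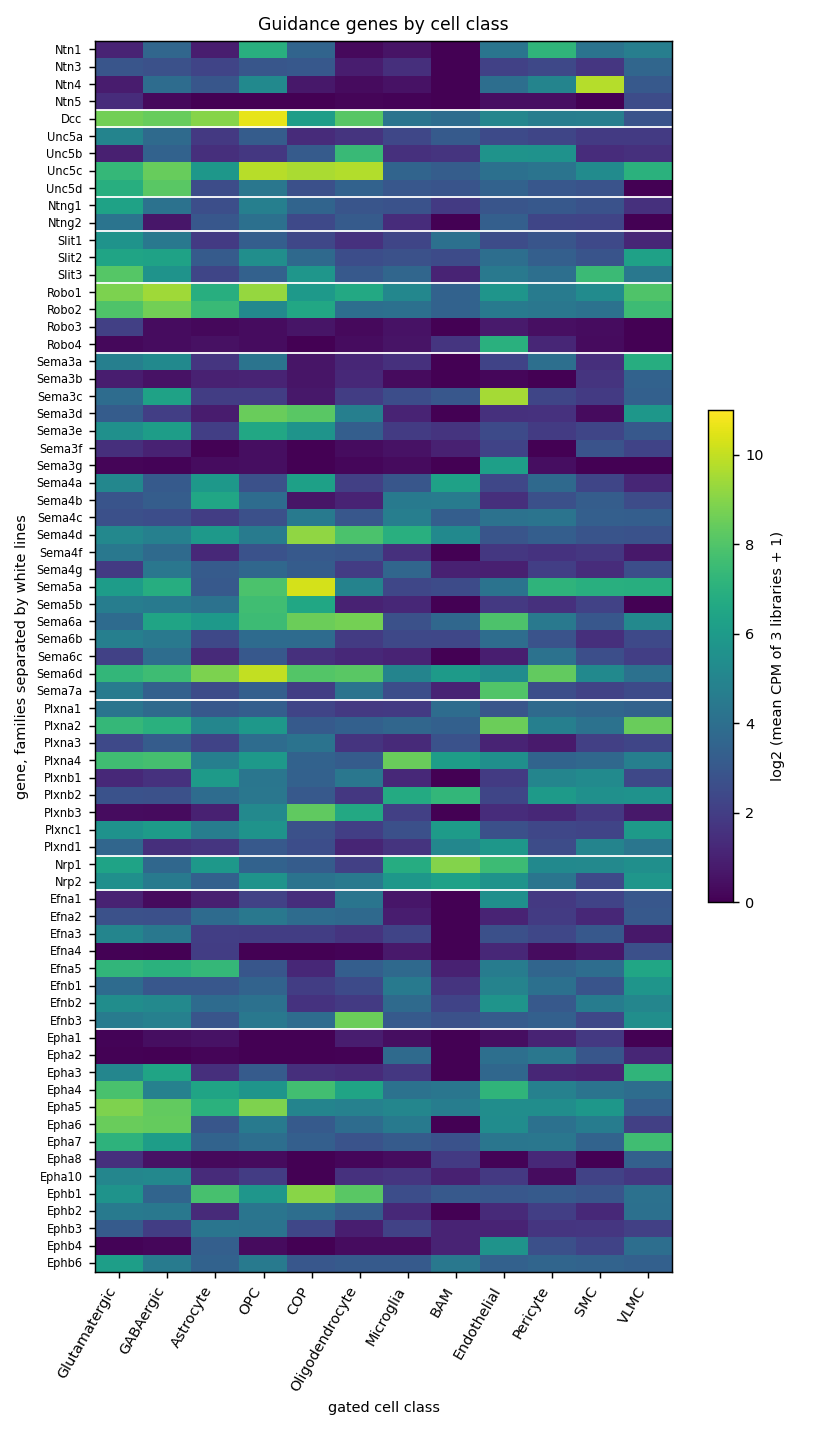
Mean level of the 71 protein-coding members in 12 gated cell classes, as log2 of mean CPM over 3 libraries plus 1, with families separated by white lines. Sema3c, at 738 CPM in endothelial cells, and Ntn4, at 876 CPM in smooth muscle cells, stand out from every other class in their rows.

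Most Eph receptors, the Slits and the netrin-Gs were higher in glutamatergic neurons than in the mean of the other classes. Against the mean of the other classes, 42 of 69 members tested were higher in glutamatergic neurons, where 25.3% of all genes tested were called higher, and 3 were lower, where 11.5% were. The call required an edgeR adjusted p under 0.05 and a 2-fold difference. Of 13 Eph receptors tested 11 were higher, as were 3 of 3 Slits and 2 of 2 netrin-Gs. The genes lower in these neurons were Unc5b, Sema6a and Plxnb2, with log2 differences of -2.88, -1.88 and -1.69. The call of Unc5b was lost without the diestrus library, at -2.19, with a stricter gate, at -2.23, and with at most 5% mitochondrial UMIs, at -2.43. In GABAergic neurons 36 members were higher and 4 lower, against 22% and 11.4% of all genes.

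GABAergic and glutamatergic neurons differed in netrins, netrin-Gs and neuropilins. In GABAergic neurons 9 members were higher and 19 lower, against 8.43% and 9.85% of all genes tested. Both neuropilins and both netrin-Gs were lower in GABAergic neurons, and 2 of the 3 netrins tested were higher. Of 13 Eph receptors, Epha3 was higher and 6 were lower.

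Epha4, a receptor for ephrins of both classes, was read at 233, 217 and 230 CPM in glutamatergic neurons of estrus, diestrus and male. In GABAergic neurons its mean was 28 CPM, lower by a log2 fold change of -3.15 ± 0.24 (SE; edgeR adjusted p = 1.0e-11). Ntng2, an axonal ligand of the synaptic adhesion protein NGL-2, stood at 14.7, 19.5 and 18.6 CPM in glutamatergic neurons and at a mean of 0.59 CPM in GABAergic neurons (log2 fold change -4.96 ± 0.32, edgeR adjusted p = 1.9e-12). The 2 groups of libraries did not overlap for either gene. In the other direction, Sema3c, a secreted ligand of neuropilins, stood at 77.3, 91.3 and 68.9 CPM in GABAergic and at 13, 13.3 and 15.4 CPM in glutamatergic neurons (2.39 ± 0.23, edgeR adjusted p = 1.0e-09). Sema6a, a membrane-bound ligand of plexins A2 and A4, was higher by 2.62 ± 0.24 (edgeR adjusted p = 3.0e-10), and the secreted netrins Ntn1 and Ntn4 were higher by 3.20 ± 0.29 and 4.08 ± 0.26 (edgeR adjusted p = 4.7e-10 and 4.8e-13).

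Genes that act with these receptors were counted in the same comparison. Among 28 co-receptors and other cues tested, 1 was higher and 7 lower in GABAergic neurons, against 8.43% and 9.85% of all genes tested. The largest falls were in the Nogo receptor gene Rtn4rl2 (-4.99), then in Rtn4r and in its partner Lingo1 (-3.73). Rtn4rl2 stood at 0, 0.216 and 0.452 CPM in GABAergic neurons of estrus, diestrus and male, so the size of its fold rests on few UMIs. The median log2 difference was -0.31 over the co-receptors, against -0.05 over all genes tested.

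Within glutamatergic neurons the guidance genes differed by layer and projection class. The subclasses were intratelencephalic (IT) neurons of layers 2/3, 4/5 and 6, extratelencephalic (ET) neurons of layer 5, near-projecting (NP) neurons of layers 5/6 and corticothalamic (CT) neurons of layer 6, and 62 members were tested against the mean of the other subclasses. In L6 CT 14 were higher and 15 lower, against 4.5% and 5.92% of all genes. In L5/6 NP 13 were higher and 16 lower, against 6.97% and 7.8%. In L2/3 IT 14 were higher and 11 lower (6.66% and 4.19%), in L4/5 IT 10 and 9 (5.66% and 2.72%), in L5 ET 13 and 8 (4.73% and 4.6%), and in L6 IT 15 and 3 (4.75% and 3.39%).

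Sema5a and Sema5b, transmembrane semaphorins with thrombospondin repeats, were high in the deep L6 CT and L5/6 NP neurons. Sema5a stood at 247, 259 and 236 CPM in L6 CT and at 156, 183 and 182 CPM in L5/6 NP in estrus, diestrus and male. In L2/3 IT it was read at 1.39, 3.6 and 2.43 CPM. L6 CT was higher than the other subclasses by a log2 fold change of 4.90 ± 0.11 (edgeR adjusted p = 2.3e-20) and L5/6 NP by 4.21 ± 0.14 (edgeR adjusted p = 8.9e-18). Sema5b followed with 70.1, 68.9 and 73 CPM in L6 CT and 69.1, 78.4 and 71.5 CPM in L5/6 NP, ranges that overlap.

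Dcc, the attractive netrin receptor, was highest in L5/6 NP, at 1530, 1490 and 1713 CPM. L6 CT followed with 595, 697 and 750 CPM and L6 IT with 432, 866 and 713 CPM, and these 2 ranges overlap. L5 ET was lowest at 77.3, 79.4 and 154 CPM. L5/6 NP was higher than the rest by 2.56 ± 0.11 (edgeR adjusted p = 2.7e-15). The same subclass was higher for Sema6a, at 78.5, 90.8 and 85.6 CPM (3.37 ± 0.18, edgeR adjusted p = 2.1e-13), and Slit1, a secreted Robo ligand, stood there at 189, 148 and 164 CPM.

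**Figure D2:**
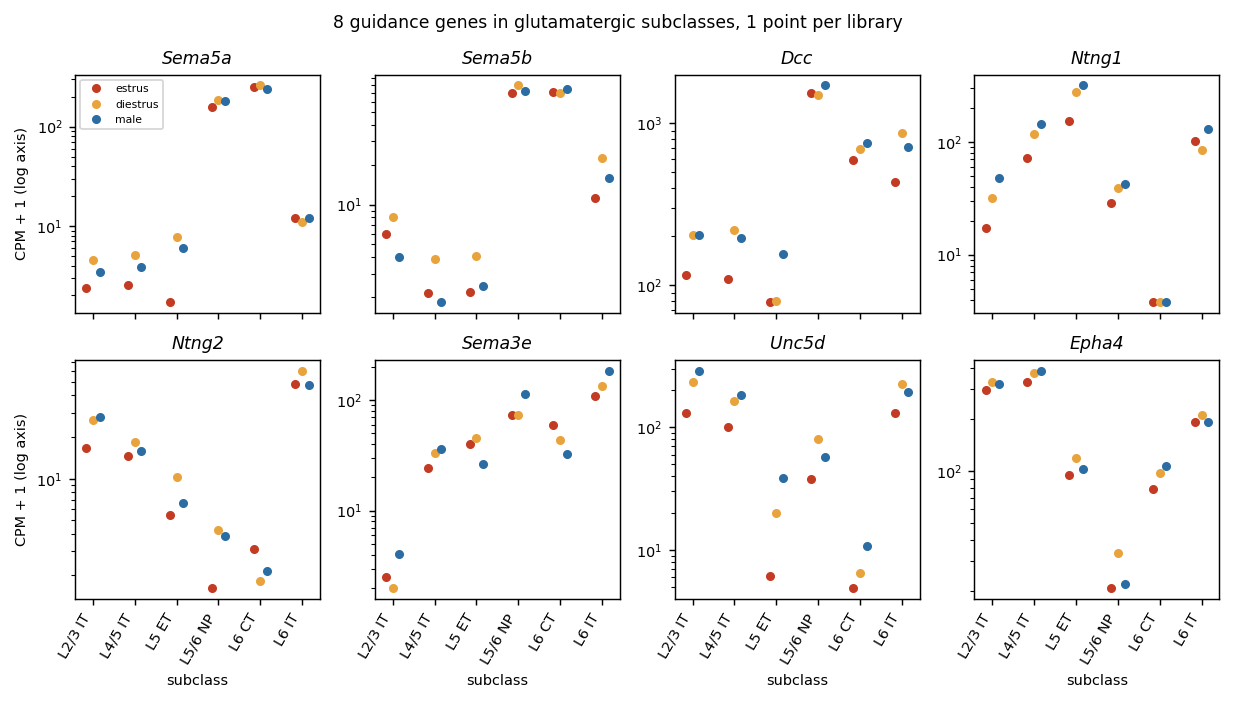
Levels of 8 guidance genes in the 6 glutamatergic subclasses, as CPM plus 1 on a log axis, with 1 point per library. Dcc peaks in L5/6 NP at 1490 to 1713 CPM, Ntng1 in L5 ET at 154 to 316 CPM, and both Ntng1 and Unc5d are lowest in L6 CT.

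The 2 netrin-Gs marked different projection classes. Ntng1, which binds NGL-1, was highest in L5 ET at 154, 275 and 316 CPM and was read at 2.84, 2.78 and 2.81 CPM in L6 CT. The log2 difference from the other subclasses was 2.95 ± 0.11 in L5 ET (edgeR adjusted p = 2.0e-16) and -4.79 ± 0.20 in L6 CT (edgeR adjusted p = 1.1e-15). Ntng2 was highest in L6 IT, at 47.2, 59 and 46.4 CPM, with a difference of 3.15 ± 0.14 (edgeR adjusted p = 1.7e-14), and was also low in L6 CT at 2.13, 0.834 and 1.16 CPM.

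Repulsive netrin receptors were low in L6 CT as well. Unc5d stood at 3.9, 5.46 and 9.76 CPM there and at 129, 235 and 286 CPM in L2/3 IT. Unc5c stood at 14.9, 17.3 and 16.5 CPM in L6 CT and at 269, 302 and 363 CPM in L6 IT. The L6 CT differences were -3.87 ± 0.20 and -3.19 ± 0.15 (edgeR adjusted p = 5.2e-14 and 8.6e-15). The ephrin Efna5 was lower there too, at 20.2, 40.9 and 25 CPM (-2.53 ± 0.12, edgeR adjusted p = 1.9e-14).

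Sema3e, Plxnd1 and Epha4 differed among the IT subclasses. Sema3e, the secreted ligand of Plxnd1, was read at 1.5, 1 and 3.04 CPM in L2/3 IT and at 108, 134 and 182 CPM in L6 IT. Its difference in L2/3 IT was -4.98 ± 0.30 (edgeR adjusted p = 1.7e-12). Its receptor gene Plxnd1 was highest in L4/5 IT, at 21.1, 27.4 and 31.7 CPM (2.88 ± 0.14, edgeR adjusted p = 5.3e-14), where Sema3d was also higher (2.92 ± 0.22, edgeR adjusted p = 1.6e-10). Epha4 was highest in L4/5 IT at 331, 373 and 381 CPM, followed by L2/3 IT at 294, 328 and 320 CPM, and lowest in L5/6 NP at 19.9, 32.7 and 21.2 CPM.

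Robo1, Epha6 and Sema6d were spread over the subclasses in other patterns. Robo1, a receptor for Slits, stood at 951, 982 and 1438 CPM in L5 ET and at 657, 924 and 912 CPM in L2/3 IT, ranges that do not overlap, and its lowest mean was in L4/5 IT, at 201, 251 and 330 CPM. Epha6 was highest in L2/3 IT, at 594, 749 and 1026 CPM. Sema6d, a transmembrane plexin ligand, was highest in L5 ET, at 215, 278 and 381 CPM, and in L6 CT, at 272, 284 and 273 CPM, ranges that overlap. The neuropilins differed as well: Nrp1 stood at 223, 200.2 and 196 CPM in L6 CT and at 26, 26.6 and 20.4 CPM in L2/3 IT, where Nrp2 stood at 60.6, 64.2 and 70.6 CPM.

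GABAergic subclasses, with 17 to 69 cells per library, were separated by several guidance genes, and 44 members could be tested. In Sst neurons 11 were higher and 4 lower (4.69% and 3.3% of all genes), in Pvalb 9 and 7 (5.62% and 5%), in Vip 9 and 5 (5.3% and 2.41%), in Lamp5 11 and 6 (5.09% and 4.95%), and in Sncg 4 and 13 (4.34% and 5.17%). Slit2, a secreted Robo ligand, was read at 236, 373 and 367 CPM in Pvalb neurons and at 5.49, 17.2 and 29.2 CPM in Sst neurons. In Vip and Sncg neurons no UMI was counted in any library. Slit3 was also highest in Pvalb neurons, at 136, 172 and 143 CPM (4.46 ± 0.21, edgeR adjusted p = 1.4e-14). The netrins Ntn1 and Ntn4, higher in GABAergic neurons as a class, were uneven over the subclasses. Ntn1 had no UMI in Pvalb and Sncg neurons in any library. Its means were 20.65, 19.72 and 13.99 CPM in Sst, Lamp5 and Vip neurons. Ntn4 had a mean of 38.4 CPM in Pvalb and of 2.3 CPM in Lamp5 neurons.

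Lamp5 neurons held the most Sema5a, at 365, 529 and 586 CPM (4.20 ± 0.16, edgeR adjusted p = 9.1e-17), and Unc5c, at 730, 1604 and 1814 CPM (2.82 ± 0.12, edgeR adjusted p = 2.2e-15). Vip neurons held the most Sema5b, at 83, 83.6 and 79.7 CPM (4.77 ± 0.32, edgeR adjusted p = 1.1e-11), and the least Unc5d, at 4.88, 14.8 and 31.1 CPM (-4.23 ± 0.23, edgeR adjusted p = 2.1e-13). Sst neurons were highest for Sema3a, a repulsive neuropilin ligand, at 81.2, 104 and 89.2 CPM (4.92 ± 0.25, edgeR adjusted p = 2.9e-14). Sncg neurons were highest for Sema3c, at 280, 319 and 222 CPM (3.62 ± 0.19, edgeR adjusted p = 1.2e-13).

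**Figure D3:**
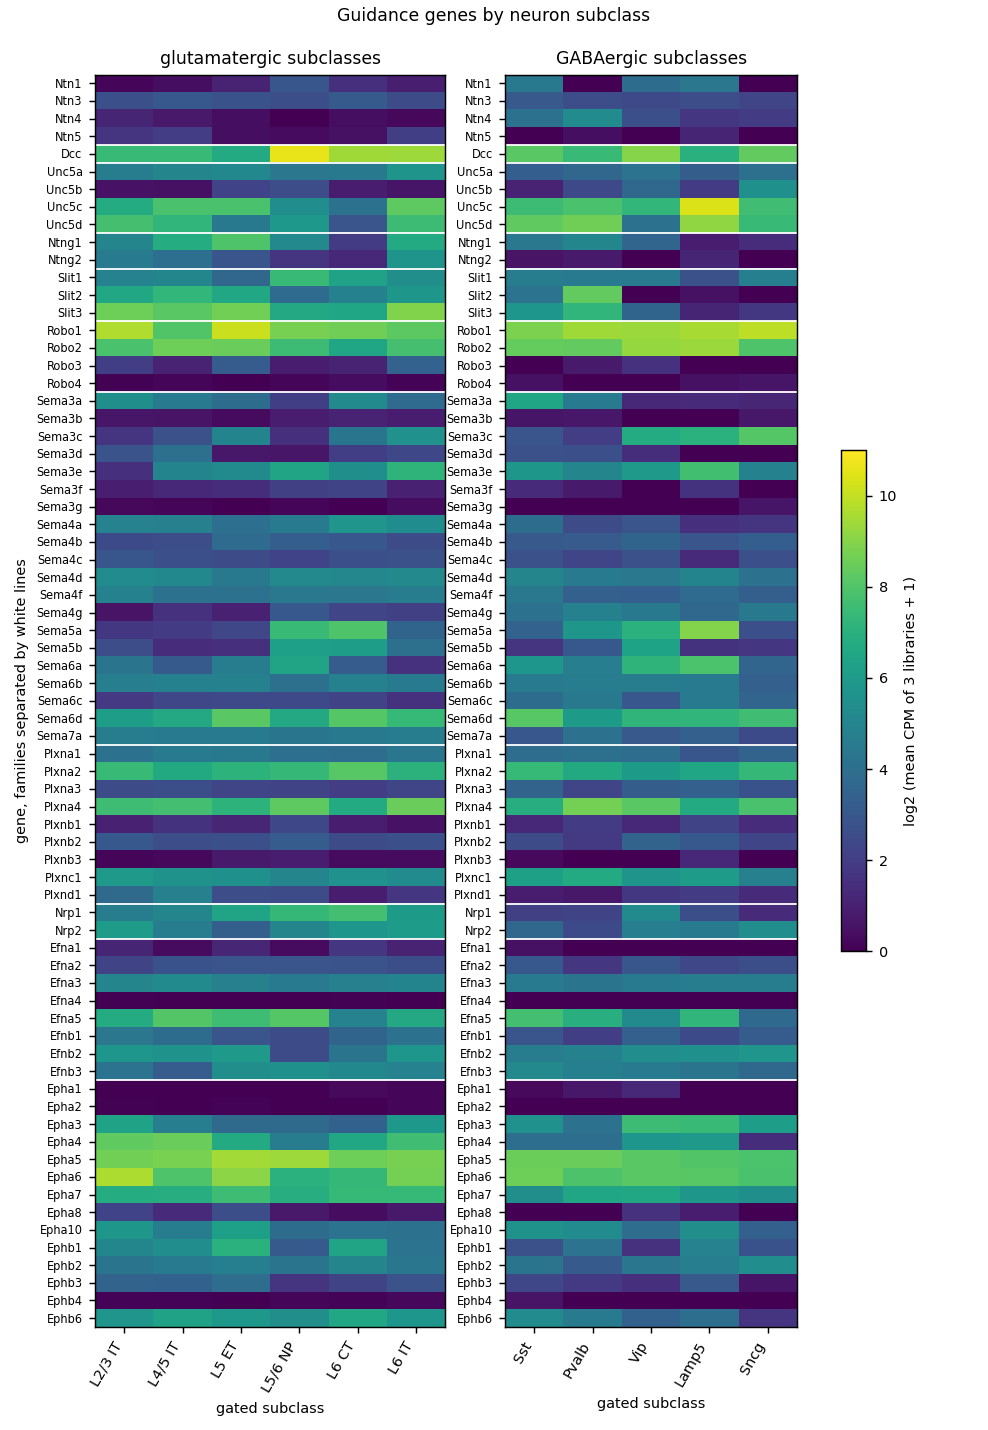
Mean level of the 71 protein-coding members in 6 glutamatergic and 5 GABAergic subclasses, as log2 of mean CPM over 3 libraries plus 1, with families separated by white lines. Slit2 in Pvalb neurons, at a mean of 325 CPM, and Dcc in L5/6 NP, at a mean of 1577 CPM, stand out in their rows.

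Of the 69 members, 25 were higher and 6 lower in OPC than in the mean of the other classes (18% and 6.94% of all genes), 17 and 13 in COP (11.2% and 11.9%), and 19 and 21 in oligodendrocytes (13.3% and 13.4%). Along this lineage the netrins, most plexins and 10 of 20 semaphorins were lower in oligodendrocytes than in OPC. Of 69 members 9 were higher and 32 lower, against 12.4% and 21.5% of all genes tested. Of 9 plexins 7 were lower and Plxnb3 was higher. All 3 netrins tested were lower. Committed precursors (COP), with 37 to 57 cells per library, lie between these classes by their markers and carried oligodendrocyte markers at 12.3% to 21.8% of the oligodendrocyte level.

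Ntn1 stood at 99.5, 139 and 129 CPM in OPC and at a mean of 0.23 CPM in oligodendrocytes (-8.57 ± 0.35, edgeR adjusted p = 7.8e-18). Sema5b fell from 200, 223 and 165 CPM in OPC to a mean of 1.1 CPM (-7.13 ± 0.30, edgeR adjusted p = 5.4e-17). Among the 12 classes compared Dcc was highest in OPC, at 1420, 1824 and 1354 CPM, and had a mean of 69 CPM in COP. The gate of neuroblasts, left out of the comparisons for its few cells, stood above OPC at 3967, 3456 and 2002 CPM. The first of these came from 15 UMIs of 1 cell, against gates of 56 and 49 cells in diestrus and male. Sema3d, a secreted neuropilin ligand, stood at 388, 366 and 310 CPM in OPC and at 217, 342 and 299 CPM in COP.

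A further set peaked in COP. Sema5a reached 945, 1513 and 1245 CPM there, against 215, 287 and 198 CPM in OPC. Sema4d, a plexin B ligand, stood at 581, 512 and 636 CPM in COP and at 221, 247 and 246 CPM in oligodendrocytes. Plxnb3, a receptor for Sema5a, stood at 309, 281 and 350 CPM in COP and at 105, 106 and 85.7 CPM in oligodendrocytes. Sema5a and Sema4d were higher in COP than in the mean of the other classes by 4.93 ± 0.15 and 4.39 ± 0.11 (edgeR adjusted p = 6.6e-23 and 2.1e-24). Plxnb3 was called as well (edgeR adjusted p = 5.6e-25), with no UMI in BAM.

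Oligodendrocytes themselves were highest for Efnb3 and Unc5b. Efnb3, a transmembrane ephrin, stood at 347, 375 and 370 CPM, against a mean of 20 CPM in OPC (4.54 ± 0.29, edgeR adjusted p = 2.5e-14). Unc5b stood at 169, 179 and 171 CPM, against a mean of 2.4 CPM (6.44 ± 0.36, edgeR adjusted p = 1.1e-15). Among the downstream genes, 1 of 5 collapsin response mediators was higher in oligodendrocytes, Dpysl2 (2.46), and 3 were lower, led by Dpysl3 (-6.39). Of 28 co-receptors and other cues tested, 5 were higher, led by Cntn2 (6.21), a contactin of myelinated axons, and 14 lower, led by Cntn6 (-5.82). For both lists the shares over all genes tested were 12.4% higher and 21.5% lower.

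**Figure D4:**
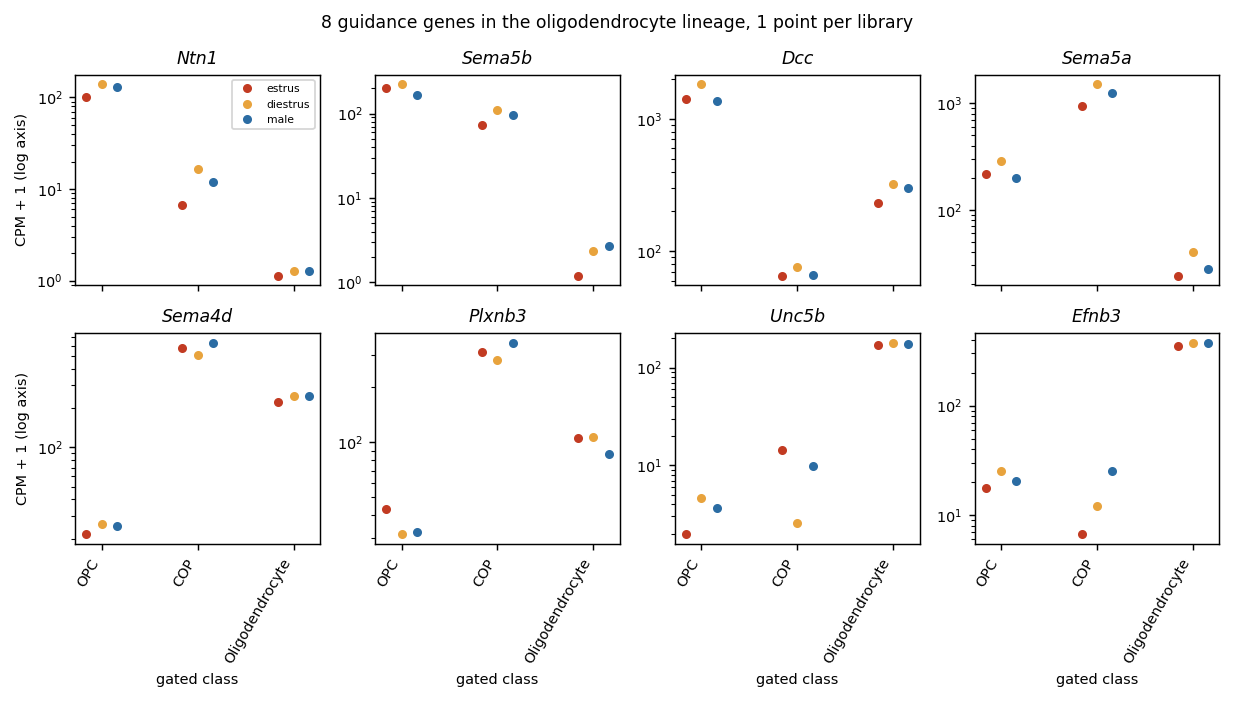
Levels of 8 guidance genes in OPC, COP and oligodendrocytes, as CPM plus 1 on a log axis, with 1 point per library. Ntn1 and Sema5b fall to oligodendrocytes, Sema5a peaks in COP at 945 to 1513 CPM, and Efnb3 is highest in oligodendrocytes at 347 to 375 CPM.

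Astrocytes had 15 members higher and 11 lower, against 19.7% and 8.75% of all genes. All 3 Slits were lower, although the call of Slit3 (-2.61) was lost with at most 5% mitochondrial UMIs, at -1.13, without the estrus library, at -1.70, and with a stricter gate, at -2.25. Sema4b, a membrane-bound semaphorin, stood at 94.2, 79.8 and 93.8 CPM (4.03 ± 0.14, edgeR adjusted p = 1.2e-21) and Plxnb1, a receptor for Sema4d, at 63, 66.7 and 56.7 CPM (edgeR adjusted p = 5.9e-18). Microglia had 12 higher and 19 lower, against 20.4% and 10.4%. Plxna4, a receptor for semaphorin-neuropilin complexes, had its highest mean in microglia, at 400, 383 and 291 CPM (3.62 ± 0.15, edgeR adjusted p = 8.4e-20). Border-associated macrophages (BAM), with 9 higher and 15 lower (12.6% and 9.64%), were highest for the co-receptor Nrp1, at 558, 433 and 507 CPM (4.16 ± 0.22, edgeR adjusted p = 2.3e-16).

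The Plxna4 locus carries 3 antisense RNAs on the opposite strand, and no source used here says whether counting used strand. Plxna4 lies on the minus strand of chromosome 6 from 32144268 to 32588192 (GRCm38), and Plxna4os1 on the plus strand from 32511073 to 32515576. Plxna4os1 stood at 30.4, 28.9 and 33.9 CPM in microglia and at 0.203, 0.28 and 0.371 CPM in glutamatergic neurons, where Plxna4 itself was read at 190, 213 and 190 CPM. Reads of the gene and of its antisense partners cannot be told apart if strand was not used.

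Endothelial cells held 4 of the 6 class-restricted guidance genes. They had 24 members higher and 17 lower, against 16.5% and 7.74% of all genes. Sema3c stood at 785, 875 and 555 CPM in estrus, diestrus and male, Sema7a at 416, 217 and 150 CPM, Robo4 at 164, 111 and 100.4 CPM and Sema3g at 92.5, 74 and 51 CPM. The class with the next highest mean for Robo4, the Robo of blood vessels, was BAM, which counted no UMI in 2 of the 3 libraries. The differences from the other classes were 7.35 ± 0.14 for Sema3c and 5.65 ± 0.18 for Sema7a (edgeR adjusted p = 2.6e-28 and 1.0e-22). Robo4 was called too (edgeR adjusted p = 4.2e-27), but no fold is given because COP and VLMC counted no UMI of it, and a fitted fold then depends on the count added before the logarithm. Ephb4, the receptor of the venous side of the ephrin B2 pair, stood at 61.4, 49.4 and 38.3 CPM, and Efnb2, its arterial ligand, at 33.9, 71.3 and 47 CPM.

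Promoters of 5 of the 6 class-restricted genes were found in the RefSeq table of GRCm38.p6, each covering 250 bases before to 50 after the start, and 4 are shown because their genes share endothelial cells as the highest class. They were searched on both strands for 2 spellings of the ETS factor core, CAGGAAG and CCGGAAG, and capitals mark the matches. The regions are chr9:37401722-37402021 for Robo4, chr5:17574566-17574865 for Sema3c, chr14:31217623-31217922 for Sema3g and chr9:57939862-57940161 for Sema7a, all on the plus strand.
Robo4: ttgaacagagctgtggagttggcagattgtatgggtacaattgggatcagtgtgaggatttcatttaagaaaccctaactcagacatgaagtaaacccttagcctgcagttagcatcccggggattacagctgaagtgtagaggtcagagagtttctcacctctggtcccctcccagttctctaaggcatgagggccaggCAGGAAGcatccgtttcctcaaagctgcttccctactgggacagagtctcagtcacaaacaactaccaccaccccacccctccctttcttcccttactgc
Sema3c: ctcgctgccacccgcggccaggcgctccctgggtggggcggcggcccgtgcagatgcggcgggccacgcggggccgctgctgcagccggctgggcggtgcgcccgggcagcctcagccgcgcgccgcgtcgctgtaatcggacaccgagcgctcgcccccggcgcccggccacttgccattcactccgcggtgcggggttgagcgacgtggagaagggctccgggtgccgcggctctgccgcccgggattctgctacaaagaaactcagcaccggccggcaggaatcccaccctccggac
Sema3g: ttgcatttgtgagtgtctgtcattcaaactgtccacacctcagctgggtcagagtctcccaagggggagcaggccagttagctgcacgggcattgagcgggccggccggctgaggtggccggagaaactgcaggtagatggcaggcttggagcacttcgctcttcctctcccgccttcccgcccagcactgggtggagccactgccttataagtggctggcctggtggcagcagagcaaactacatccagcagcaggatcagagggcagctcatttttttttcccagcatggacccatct
Sema7a: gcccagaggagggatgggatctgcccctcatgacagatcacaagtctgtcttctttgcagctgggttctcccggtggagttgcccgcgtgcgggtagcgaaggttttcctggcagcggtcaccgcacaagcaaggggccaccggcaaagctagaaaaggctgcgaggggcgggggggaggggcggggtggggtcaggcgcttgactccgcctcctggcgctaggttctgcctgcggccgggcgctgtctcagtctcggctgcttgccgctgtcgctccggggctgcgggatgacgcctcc
CAGGAAG was found in the Robo4 window and in none of the other 3, and CCGGAAG in none of the 4. Of 32851 promoters in the table, 13.3% held the former and 8.86% the latter, so 1 match in 4 windows is a description only. The GC box GGGCGG was found in Sema3c, Sema3g and Sema7a and not in Robo4. It was present in 70.1% of 77 promoters of guidance genes and in 35.7% of all.

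Pericytes differed from endothelial cells in 31 of 69 members tested. Against the other classes pericytes had 11 members higher and 11 lower (12.2% and 5.73% of all genes) and VLMC had 21 and 7 (12.5% and 7.05%). In pericytes 10 members were higher and 21 lower than in endothelial cells, against 10.3% and 12.5% of all genes tested. Sema3c had a mean of 3.9 CPM in pericytes (-7.78 ± 0.37, edgeR adjusted p = 3.4e-17). Of 7 ephrins tested 4 were lower, and 2 of 9 plexins, Plxnb1 and Plxnb2, were higher (3.41 ± 0.30 and 3.95 ± 0.22, edgeR adjusted p = 1.0e-10 and 1.6e-15). Ntn1 stood at 142, 165 and 136 CPM in pericytes, against 19.2, 23.2 and 13.2 CPM in endothelial cells (2.75 ± 0.23, edgeR adjusted p = 6.4e-11). A different netrin marked smooth muscle cells, where Ntn4 stood at 760, 1071 and 797 CPM (edgeR adjusted p = 9.7e-29 against the other classes, of which BAM counted no UMI). Smooth muscle cells had 13 members higher and 16 lower, against 13.8% and 6.97%.

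Between the libraries there was 1 library per group, so no test was possible, and intervals cover counting error only. A member was counted where its ratio, with 1 CPM added, reached 2-fold at a mean of at least 20 CPM, in the 8 classes with at least 100 cells in every library. Of 157 values of a member in a class, 1 was higher and 14 lower in estrus than in diestrus, against 0.862% and 1.82% of all genes over the same classes. Of 160, 3 were higher and 13 lower in estrus than in male, a comparison that shares the estrus library, against 1.28% and 3.59%. Of 170, 1 was higher and 10 lower in diestrus than in male, against 0.13% and 0.951%. The counts rested on the limits used: with a correction for gene length, the 15 values of estrus against diestrus fell to 4, and with no minimum mean CPM they rose to 30, those of estrus against male from 16 to 56 and those of diestrus against male from 11 to 20.

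In glutamatergic neurons Dcc stood at 237, 499 and 475 CPM in estrus, diestrus and male, Sema5a at 37.4, 88.1 and 71.6 CPM and Sema5b at 13.8, 31.3 and 27.2 CPM. These were the 3 members past 2-fold against diestrus, where 0.56% of all genes were that much lower. The log2 ratios were -1.07, -1.21 and -1.13, with 95% intervals from -1.11 to -1.04, from -1.32 to -1.16 and from -1.32 to -1.05. The gate of estrus held 182 L6 CT and 62 L5/6 NP cells, against 402 and 150 in diestrus, the subclasses in which all 3 genes were high. With subclasses weighted alike the ratios were -0.31, -0.16 and -0.21, and with the length correction Dcc and Sema5a were under 2-fold.

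In endothelial cells 3 members were higher and 6 lower in estrus than in male, against 3.3% and 9.52% of all genes. Plxna2, a plexin that binds class 6 semaphorins, stood at 572, 328 and 204 CPM in estrus, diestrus and male, with a log2 ratio of estrus over male of 1.48 (95% interval 1.40 to 1.58). Sema7a gave 1.47 (1.37 to 1.58), and Efnb1, at 44.5, 23.2 and 19.3 CPM, gave 1.16 (0.92 to 1.51). Sema6a went the other way, at 139, 330 and 254 CPM, with a log2 ratio of estrus over diestrus of -1.24 (-1.32 to -1.17). Epha2, at 29.6 and 10.8 CPM, was the only member past 2-fold higher in estrus than in diestrus in any of the 8 classes (1.38, 1.16 to 1.77). Its mean lay close to the minimum of 20 CPM, so its place in the count rests on that limit.

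The members lower in estrus than in male in endothelial cells were Epha5, Epha6, Robo1, Robo2, Dcc and Slit3. All were also read in glutamatergic neurons. Among the classes compared, those neurons held the highest mean only for Epha6 and Slit3. The highest mean was in GABAergic neurons for Robo1 and Robo2, and in OPC for Dcc and Epha5. With the correction for gene length the endothelial log2 ratio of Dcc turned to 0.21, and Robo2 and Slit3 were lower by less than 2-fold. Epha6 stood at 11.3, 14 and 93.6 CPM and Robo1 at 18.1, 25.7 and 112 CPM. As a share of the glutamatergic level these were 3.68%, 4.47% and 20.8% for Epha6 and 4.76%, 5.64% and 20.6% for Robo1. The glutamatergic markers stood at 4.68%, 10.5% and 15.5%, so both genes lay above the marker share in male. Epha5, Slit3 and Dcc lay below that share in male. They stood at 76.4, 42 and 46.5 CPM in endothelial cells, against 534, 302 and 475 CPM in glutamatergic neurons. The share of Robo2 is not given here. In microglia 4 members were lower, against 7.04% of all genes, namely Epha5, Epha6, Robo1 and Dcc. Robo1 was read there at 1.59%, 4.59% and 13.1% of the glutamatergic level. The part of neuronal RNA in these differences was not tested.

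**Figure D5:**
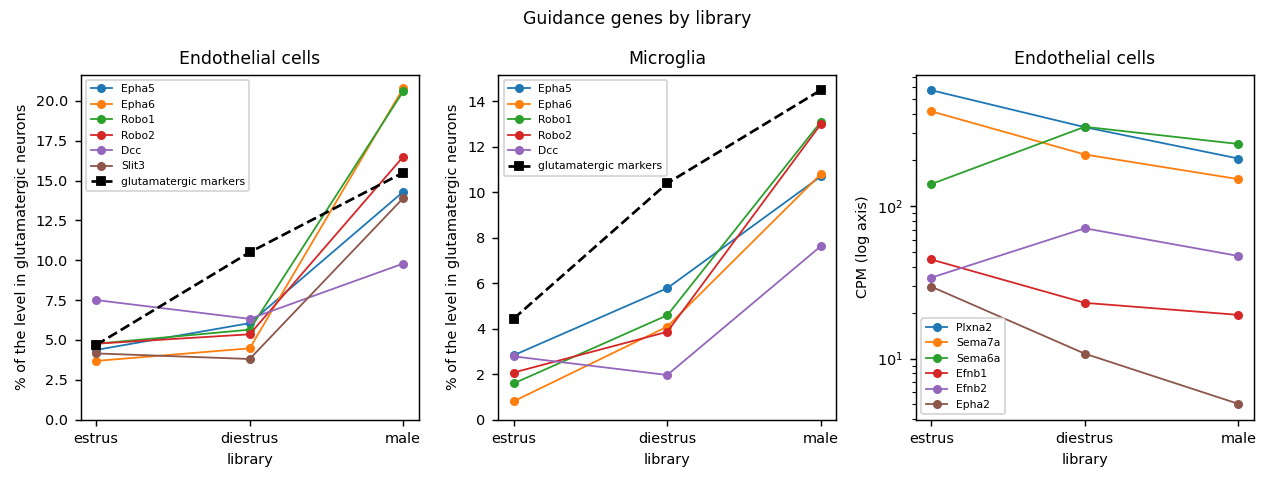
Left and middle, levels of members in endothelial cells and microglia as a percentage of their level in glutamatergic neurons of the same library, with the glutamatergic markers as a dashed line. Right, CPM of 6 members in endothelial cells on a log axis, where Plxna2 runs from 572 in estrus to 204 in male. Each point is 1 library, and lines join the values of 1 gene.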

How the data were processed

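UMI counts per gene and cell were deposited by the authors, 1 filtered matrix per library. The submitters' processing notes name Cell Ranger 3.0.2 and mm10, while the file headers name cellranger 7.0.0. No source used here gives the annotation, whether introns were counted, or how strand was used. Library totals were 152291602, 144738154 and 115632520 UMIs in estrus, diestrus and male, over 14476, 18052 and 19555 barcodes.

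Cells with under 500 genes, over 15% mitochondrial UMIs or a Scrublet doublet score over 0.3 (expected rate 0.1) were left out. Of the cells, 697, 721 and 794 were over the doublet limit. Cells were gated by the mean log level of marker genes. The winning class score had to reach 0.5 and the next at most 0.5 of it (0.8 for related classes); subclasses needed a mean z score of 0.5 and a lead of 0.3. Erythroid scores were not counted as runner-up. The erythroid gate, with 324, 1843 and 1639 cells in estrus, diestrus and male, entered no comparison, and its guidance RNA is not described here. These limits were set after marker scores and cell numbers were seen. Cells without a class numbered 815, 1821 and 2135. Glutamatergic neurons without a subclass numbered 319, 373 and 358. Nearly all markers were highest in their own gate, with exceptions in OPC, L6 CT, L6 IT, Vip and Lamp5. In L6 IT only 3 of 5 markers were highest in their own gate, so peaks placed in that gate are less certain.

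Summed counts were fitted with edgeR 4.0.16 (TMM, low-count filter, quasi-likelihood test, cell type plus library) over all genes, and p-values were adjusted by Benjamini-Hochberg over all genes of a comparison. Classes needed 20 cells per library and GABAergic subclasses 15. L6b neurons, with 6 cells in estrus, were not tested. The library is a block because the cells of all classes in it come from the same mice. Over 198 pairs of classes, the correlation of same-library deviations had a median of 0.127, and 120 were above 0.1. On simulated counts with known changes, the fit recovered 77% of 2-fold and 91% of 4-fold changes for glutamatergic neurons against the other classes, over 14774 genes, where 7.18% of the calls were false. For Sst against the other GABAergic subclasses it recovered 62% of 2-fold and 97% of 4-fold changes over 9002 genes, with 4.79% of the calls false. DESeq2 1.42.0 served as an alternative. The tau index and the motif letters were added beside these tests. The members, marker lists and gene lists were chosen with earlier results of these data known. Within a comparison the text names at most 6 called members in each direction, by size of change, and in each family those highest in a class. Gene positions are those of GENCODE on GRCm38, and 32235 of 32285 gene IDs matched it. Promoters matched 61 of the 74 members. The result of 1 list of downstream genes is not reported here.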

Additional observations from a re-analysis of the deposited data

Results flagged for a closer look

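The L6b, neuroblast, ependymal and lymphocyte gates entered no comparison, for their small or uneven number of cells. They also held guidance RNA above the limit that a count of 0 allows. Values are pooled over libraries and rest on 90 L6b neurons, 106 neuroblasts, 68 ependymal cells and 75 lymphocytes. L6b neurons held Epha5 at 797 CPM, Robo2 at 305 CPM and Dcc at 301 CPM, with a limit of 1.42 CPM. Neuroblasts held Dcc at 2830 CPM, Robo2 at 977 CPM and Efna5 at 314 CPM, with a limit of 4.04 CPM. Ependymal cells, gated in diestrus, held Sema6d at 228 CPM, Plxnb2 at 102 CPM and Sema3e at 93.9 CPM, with a limit of 4.62 CPM. Lymphocytes held Sema4d at 79.1 CPM, Plxnc1 at 27.5 CPM and Epha5 at 20.6 CPM, with a limit of 10.3 CPM. The part of free neuronal RNA in the last value was not tested.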

How the results depend on the processing

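The counts of called members between cell classes stayed within 1.5 times their value under every alternative that gave one: DESeq2, other size factors, no filter, a stricter gate, no doublet limit, no replicate block and each library left out. Without the replicate block the count went from 28 to 26 for GABAergic against glutamatergic neurons, from 41 to 39 for oligodendrocytes against OPC, from 387 to 377 over all classes, from 141 to 138 over glutamatergic and from 79 to 72 over GABAergic subclasses, and was 31 in both fits for pericytes against endothelial cells. Leaving out 1 library gave 20 to 28, 38 to 40, 330 to 375, 126 to 137, 67 to 79 and 23 to 31 in the same order. With at most 5% mitochondrial UMIs, smooth muscle cells and Pvalb neurons had too few cells, so the counts over classes and GABAergic subclasses have no value there. Of 299 values of single members, 43 lost their call without some library and 39 under another setting, and none turned its direction. Unc5b in glutamatergic neurons lost its call without diestrus and Slit3 in astrocytes without estrus, and both lost it with the stricter gate and with at most 5% mitochondrial UMIs.

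Between libraries the counts past 2-fold rested on the limits. With no minimum mean CPM they rose from 15 to 30 for estrus against diestrus, from 16 to 56 for estrus against male and from 11 to 20 for diestrus against male. With a correction for gene length the first fell to 4. In neurons, weighting subclasses alike took them from 8 to 2, from 2 to 1 and from 1 to 0. The log2 ratio of Dcc in endothelial cells, estrus over male, turned to 0.21 with the length correction, and the cause was not tested. Depth limits the small gates most, where a gene with no UMI may still be present.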
